A study of Equus caballus with 12 samples.

Results

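The 52 genes described here were read at a low level in naive equine mesenchymal stem cells (MSCs) and at a lower level still in cytokine-licensed cells of the same horses. They were chosen on measured values: a gene with a symbol had to appear in the authors' table of different genes, with a mean of at least 40 normalized counts over the 6 naive libraries and of at most 20 over the 6 licensed libraries. MGP, HPGD, SOD3, SNED1, ARHGAP36 and all symbols beginning with SLC or S100 were left out by name. Of 1341 listed genes, 65 met both levels, of which 7 had no symbol and 6 were left out by name. Because the choice used the difference between naive and licensed libraries, that difference is described below without a test.

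MSCs are adherent stromal cells of bone marrow that can form bone, cartilage and fat. The cells were primary cultures from the marrow of 6 horses. Each horse gave 1 naive culture in standard medium (low-glucose DMEM with fetal bovine serum) and 1 dual-licensed culture, to whose medium the human recombinant cytokines IL-1β (2 ng/ml) and TGF-β2 (1 ng/ml) were added, both sampled at 72 hours. All 12 libraries were made from polyA-selected RNA, 1 for each culture, so the spread between libraries of a group is a spread between horses. Age and breed of the horses are not given in the labels, and each culture holds whatever cells of the marrow adhered and grew.

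Licensing is the exposure of MSCs to inflammatory signals before use. IL-1β acts through its receptor on the NF-κB transcription factors, and TGF-β2 through receptor kinases on the SMAD transcription factors. Both are known for switching on genes of inflammation and of matrix production. The 52 genes were lower in licensed means and do not form 1 pathway. By known role, 7 are secreted or matrix proteins, 8 are receptors or other membrane proteins, 9 belong to nerve-cell or adhesion families, 10 are signalling proteins or enzymes, 6 act on transcription or chromatin, 9 belong to the cytoskeleton, cilia or cornified envelope, and 3 are named without a role.

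A value here is a normalized count, that is, a read count divided by 1 size factor per library. It is not corrected for the length of the gene, so levels of different genes are not compared. The reads on listed genes were 1672419 to 1844648 in naive and 2718393 to 3424328 in licensed libraries. How deeply the libraries were sequenced in all is unknown. At these size factors 3 reads are worth 2.56 to 3.33 normalized counts, and values near that floor rest on few reads. In bulk RNA, fewer cells of a type and less RNA per cell cannot be told apart. The authors called 671 genes lower and 670 higher, 5.09% and 5.08% of the 13183 genes their adjusted p-values imply were tested. The median naive mean was 141 over all listed genes and 51.9 over the 52. Together the 52 held 0.191% of the normalized counts of listed genes in naive and 0.0218% in licensed libraries. These shares have unlike bases, since listed genes held more normalized counts in licensed libraries, and the choice of the 52 fixes their difference in part.

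The 52 genes were not silent after licensing, with few exceptions. Reads were found in all 6 licensed libraries for 44 of them, and 12 of 312 licensed values were 0. A further group lay near the floor: 49 of the 312 licensed values, zeros included, rested on 3 reads or fewer, against 6 of the 312 naive values. The licensed mean was under 5 normalized counts for 6 genes, under 10 for 17 and between 10 and 20 for 35. The naive mean was between 40 and 50 for 20 genes and at least 100 for 8. The ratio of the naive to the licensed mean ran from 2.22 to 50.6 with a median of 4.72. It was under 4 for 17 genes, from 4 to 8 for 19, from 8 to 16 for 11 and at least 16 for 5, namely NCCRP1, PDE1A, CDH26, DDIT4L and GPER1. The other 619 genes listed as lower had a median ratio of 2.70, and the 133 of them with naive means in the range of the 52 had a median of 2.52, values the choice of the 52 fixes in part. In the authors' deposited table the log2 fold changes of the 52 ran from -5.66 to -1.15 with a median of -2.24, beside -1.48 for all genes listed as lower and -1.002 for all listed genes. With 671 listed genes lower and 670 higher, that last median is the lower gene nearest to 0 and no typical change.

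**Figure D1:**
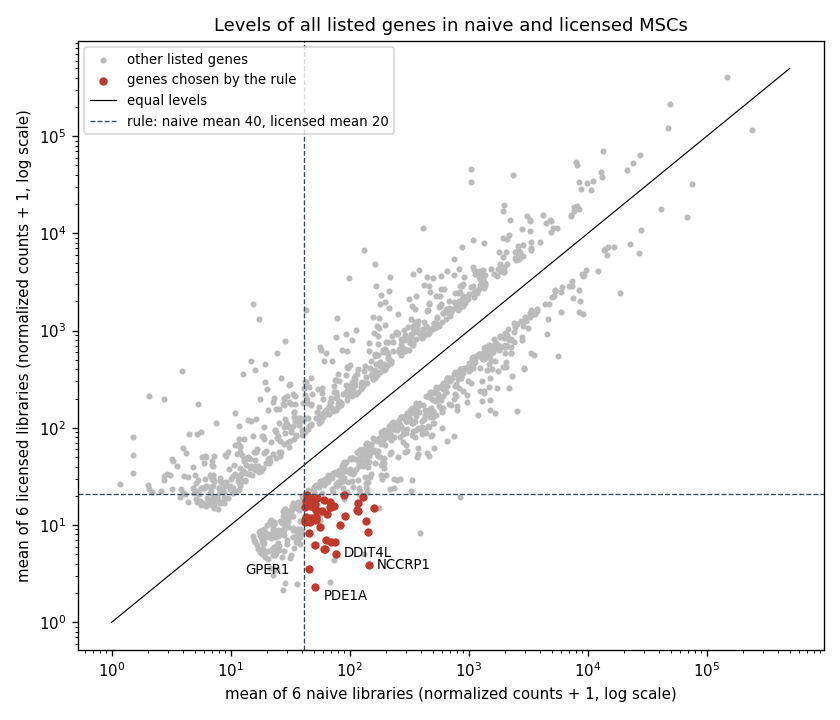
Mean of 6 licensed libraries against mean of 6 naive libraries for every listed gene, in normalized counts plus 1 on log axes, with the 52 genes coloured. The 52 fill the corner with naive means of at least 40 and licensed means of at most 20, and of the 52 PDE1A and GPER1 have the lowest licensed means, at 1.30 and 2.56.

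The secreted and matrix group was led by IL16 (ENSECAG00000022705), a cytokine that attracts CD4+ cells. IL16 had naive values from 48.4 in horse 3 through a median of 118 to 286 in horse 1, and licensed values from 5.498 through 11.4 to 12.8. The groups did not overlap, and the mean went from 135 ± 84.2 (SD, n = 6) to 9.88 ± 3.20, with a log2 fold change of -3.77 in the authors' deposited table. ISM1, a secreted inhibitor of blood vessel growth, ranged from 24.4 in horse 1 through 90.7 to 146 in horse 2 in naive cells and from 6.14 through 11.4 to 18.5 in licensed cells, again without overlap. PAPLN, a glycoprotein of basement membranes, behaved differently, because 1 horse carried its naive mean of 62.6 ± 67.6. Its naive values ran from 16.5 in horse 6 through 35.0 to 195 in horse 1, its licensed values from 0 in horse 6 through 3.75 to 20.2 in horse 1, and the groups overlapped. Without horse 1 the naive mean of PAPLN was 36.1, under the level asked for.

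KLK8, a serine protease known as neuropsin, ranged from 6.35 in horse 1 through 39.8 to 89.4 in horse 5 in naive and from 1.01 in horse 1 through 13.2 to 34.2 in horse 5 in licensed libraries. The same horses were lowest and highest in both groups, which overlapped. C1QTNF12, which encodes adipolin, an insulin-sensitising factor in mice, went from 51.5 ± 34.2 to 10.3 ± 5.48. The smallest differences of the group were those of WNT2B, a Wnt ligand, at 44.4 ± 13.5 and 17.0 ± 8.25, and of TNXB, the matrix protein tenascin-X, at 46.7 ± 20.6 and 18.1 ± 14.6. WNT2B was higher after licensing in horse 2, at 28.4 against 21.4. In humans TNXB has a near-identical partial copy, and whether reads were split between copies in the horse was not tested. Of the 7 genes, 6 were lower in all 6 horses, beside 93.3% of all genes listed as lower.

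Among receptors, GPER1, a G protein-coupled receptor that responds to oestrogen, came nearest to the floor. Its naive values ran from 1.06 in horse 1 through 29.9 to 125 in horse 6, and its licensed values from 0 in horse 4 through 2.83 to 4.58 in horse 6. All 6 licensed libraries together held 16 reads of GPER1, with an exact 95% Poisson interval of 9.15 to 26.0 that covers counting error only. The groups overlapped because naive horse 1 held about as little GPER1 as the licensed cells, and without horse 6 the naive mean went from 44.3 to 28.2. ACKR1, the atypical chemokine receptor that binds chemokines without signalling through G proteins, ranged from 37.0 in horse 1 through 71.0 to 158 in horse 2 in naive and from 0 in horse 6 through 5.71 to 22.5 in horse 2 in licensed libraries. These ranges did not meet, and the mean of ACKR1 went from 82.5 ± 50.5 to 9.10 ± 8.62.

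CALHM3, a subunit of an ATP-releasing channel of taste cells in mice, was the most even of the high genes of this group. It ranged from 86.7 in horse 6 through 121 to 152 in horse 3 in naive and from 5.98 in horse 4 through 9.34 to 25.9 in horse 5 in licensed cells, and the lowest naive value was far above the highest licensed value. SCARA5, a scavenger receptor that takes up ferritin, went from 73.9 ± 54.8 to 5.77 ± 4.30. ADRA1D, an α1-adrenergic receptor, went from 55.0 ± 44.2 to 8.64 ± 8.99. Their groups overlapped, as did those of TSPAN15, a tetraspanin that escorts the protease ADAM10, at 50.1 ± 25.4 and 15.4 ± 14.7.

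IZUMO1R, known as the receptor of the egg for sperm, ranged from 27.9 in horse 6 through 34.8 to 125 in horse 1 in naive and from 6.14 in horse 3 through 14.3 to 20.5 in horse 2 in licensed libraries. Its groups did not overlap, although horse 1 stood well above the other naive libraries. GPR146, a G protein-coupled receptor, had the naive mean nearest to the threshold, with values from 30.04 in horse 3 through 43.0 to 47.8 in horse 4 against 5.05 in horse 1 through 9.21 to 18.4 in horse 3 after licensing. All 8 genes of this group were lower in every horse, as were 93.3% of all genes listed as lower. The groups did not overlap for 4 of the 8, against 53.5% of all genes listed as lower, so neither count sets these receptors apart.

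Among the genes of nerve-cell and adhesion families, the naive mean of CDH26, a cadherin, was carried by 1 culture. Naive values of CDH26 ran from 2.91 in horse 3 through 35.1 to 650 in horse 1. The licensed values of CDH26 ran from 0 in horse 6 through 4.47 to 26.2, again in horse 1, and in horse 3 the licensed value of 3.07 was not lower than the naive value. Without horse 1 the naive mean of CDH26 went from 141 to 38.9. Its log2 fold change was -4.24 in the authors' deposited table, and -2.89 ± 1.11 (SE) on the log2(value + 1) scale of limma, which averages over horses. That SE is from the fit without a term for the horse, and it was 0.53 with the horse as a block. Without horse 1 the log2 change of CDH26 in limma was -2.55.

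NTNG1, a membrane-anchored guidance protein of axons, was more even, from 81.5 in horse 1 through 100 to 168 in horse 2 in naive and from 4.27 in horse 4 through 13.7 to 22.2 in horse 5 in licensed cells. EVA1C, a receptor that binds Slit guidance proteins, ranged from 21.1 in horse 4 through 45.3 to 163 in horse 1 against 0 in horse 3 through 5.86 to 8.32 in horse 5. BAIAP3, of the Munc13 family of secretion factors, ranged from 23.2 in horse 3 through 39.6 to 62.1 in horse 2 against 2.04 in horse 3 through 11.03 to 18.6 in horse 2. The groups of these 3 genes did not overlap. For EVA1C the naive mean without horse 1 was 39.9, down from 60.4.

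CHL1 and NRCAM, both of the L1 family of neural cell adhesion molecules, went from 67.9 ± 55.0 to 14.2 ± 14.1 and from 51.3 ± 23.3 to 13.1 ± 8.12. CALB2, the calcium-binding protein calretinin, went from 68.2 ± 47.0 to 14.3 ± 10.0, and in horse 1 it was listed at 0 in the naive and at 1.01 in the licensed library. TMEM204, a claudin-like membrane protein, went from 52.2 ± 30.1 to 18.0 ± 6.05. The groups of these 4 genes overlapped.

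**Figure D2:**
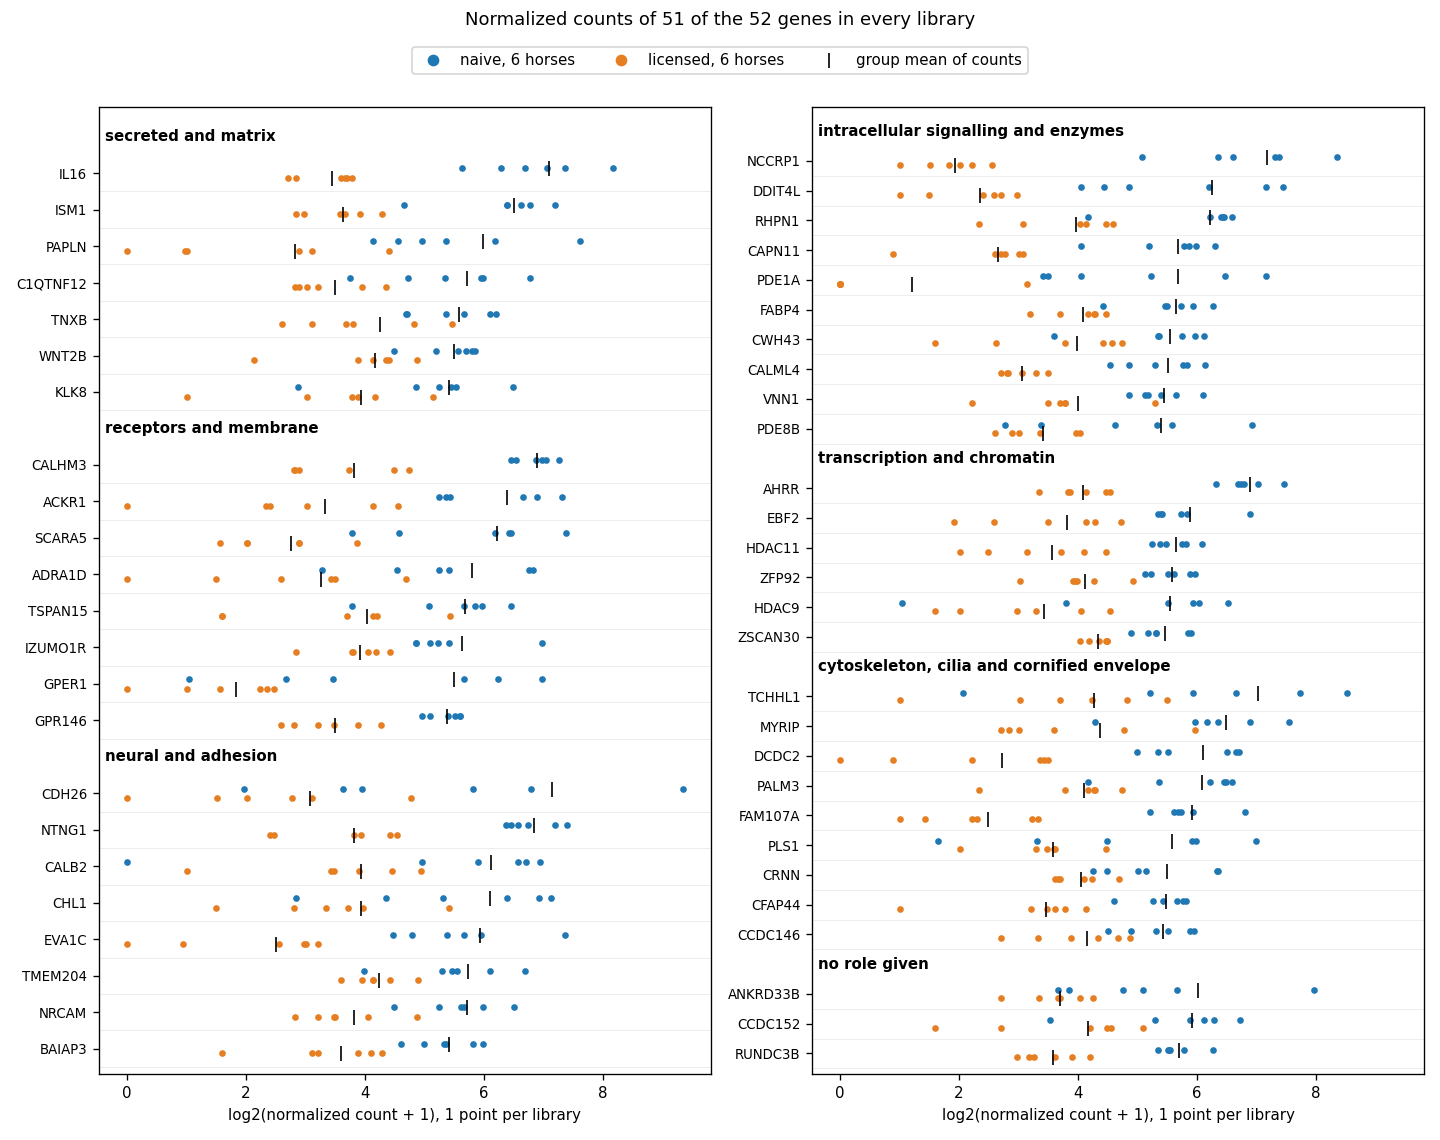
Normalized counts of 51 of the 52 genes in each of the 6 naive and 6 licensed libraries on a log scale, grouped by role, with a tick at each group mean. Naive points of CDH26 reach from 2.91 to 650, while those of CALHM3 stay between 86.7 and 152.

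The group of signalling proteins and enzymes held the largest differences. NCCRP1 (ENSECAG00000018954), which carries the F-box-associated domain of adaptors for ubiquitin ligases, had naive values from 32.8 in horse 1 through 127 to 326 in horse 2. Its licensed values ran from 1.02 in horse 3 through 2.79 to 4.89 in horse 2. Every licensed library was far below every naive one. The mean went from 143 ± 102 to 2.84 ± 1.36, a log2 fold change of -5.66 in the authors' deposited table and of -4.99 ± 0.48 (SE) in limma without a term for the horse. With the horse as a block that SE was 0.39. The licensed libraries together held 18 reads of NCCRP1 (exact 95% Poisson interval 10.7 to 28.4), against 825 in the naive ones.

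PDE1A (ENSECAG00000022509), a phosphodiesterase that calcium and calmodulin activate to break down cyclic nucleotides, was the only one of the 52 listed at 0 in most licensed libraries. It was at 0 in 5 of them and at 7.83 in horse 2, which is 8 reads in all (exact 95% Poisson interval 3.45 to 15.8). Its naive values ran from 9.69 in horse 3 through 26.1 to 142 in horse 1. Licensed horse 2 lay just under the lowest naive value, so the groups did not overlap, but the naive mean of 50.3 ± 53.7 went to 32.01 without horse 1. The log2 fold change was -5.28 in the authors' deposited table. PDE8B, a phosphodiesterase specific for cAMP, ranged from 5.81 in horse 3 through 31.5 to 121 in horse 4 in naive and from 5.11 in horse 3 through 8.16 to 15.4 in horse 4 in licensed cells. Without horse 4 the naive mean of PDE8B went from 41.05 to 25.0, and its groups overlapped.

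DDIT4L (ENSECAG00000037711), an inhibitor of the growth kinase complex mTORC1, had naive values from 15.5 in horse 3 through 50.4 to 173 in horse 4 and licensed values from 1.02 in horse 3 through 4.66 to 6.85 in horse 2. The groups did not overlap, and the mean went from 75.4 ± 67.6 to 4.09 ± 2.24, with a log2 fold change of -4.20 in the authors' deposited table. Naive horses 1 and 4 held most of the DDIT4L reads, at 142 and 173, while horses 3, 5 and 6 stayed between 15.5 and 27.9. CALML4, a calmodulin-like protein, ranged from 22.2 in horse 4 through 45.7 to 69.6 in horse 2 in naive and from 5.54 in horse 5 through 6.69 to 10.2 in horse 3 in licensed libraries, without overlap. VNN1, a pantetheinase of the cell surface, ranged from 27.8 in horse 2 through 38.3 to 67.8 in horse 3 against 3.67 in horse 6 through 12.4 to 38.4 in horse 1. In horse 1 the licensed value of VNN1 was above the naive value of 33.9.

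FABP4, the fatty acid-binding protein of fat cells, went from 49.4 ± 18.8 to 15.9 ± 4.84 with overlapping groups. CAPN11, a calcium-activated protease, went from 50.4 ± 21.9 to 5.30 ± 2.35 without overlap. RHPN1, a scaffold protein of intracellular signalling, went from 73.5 ± 28.6 to 14.6 ± 7.50, and CWH43, which in yeast remodels the lipid of membrane anchors, from 45.6 ± 20.4 to 14.9 ± 9.82. Of the 10 genes, 9 were lower in all 6 horses, VNN1 being the exception, beside 93.3% of all genes listed as lower.

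In the transcription and chromatin group the naive and licensed ranges did not overlap for 5 of 6 genes, a count too small to read against the 53.5% of all genes listed as lower. AHRR, the repressor of the aryl hydrocarbon receptor, ranged from 79.2 in horse 2 through 108 to 176 in horse 5 in naive and from 9.16 in horse 6 through 15.1 to 22.2 in horse 5 in licensed cells. Its mean went from 117 ± 32.9 to 16.02 ± 5.00, with a log2 fold change of -2.87 in the authors' deposited table. ZSCAN30, a zinc finger protein, had the smallest ratio of the 52, from 28.6 in horse 1 through 38.8 to 58.9 in horse 6 against 15.3 in horse 3 through 20.2 to 21.5 in horse 2. The remaining zinc finger gene, ZFP92, went from 47.0 ± 11.1 to 16.4 ± 7.32. EBF2, an early B-cell factor known in mice for brown fat and marrow stroma, went from 57.9 ± 29.8 to 13.1 ± 8.62.

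Both histone deacetylase genes of the group differed in how their naive values spread. HDAC11, of class IV, went from 49.4 ± 11.2 to 10.8 ± 6.98 without overlap. HDAC9, of class IIa, ranged from 1.06 in horse 1 through 52.2 to 90.4 in horse 5 in naive and from 2.02 in horse 1 through 7.82 to 22.2 in horse 5 in licensed libraries. Naive horse 1 thus held 1 read of HDAC9, and licensed horse 1 was not lower.

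Of the cytoskeletal, ciliary and cornified-envelope genes, TCHHL1, an S100-fused protein of the trichohyalin family, spread the most. Its naive values ran from 3.18 in horse 1 through 80.1 to 367 in horse 6, its licensed values from 1.01 in horse 1 through 14.97 to 44.0 in horse 2, and the groups overlapped. Without horse 6 the naive mean of TCHHL1 went from 129.5 to 82.0. Its relative CRNN, cornulin of the cornified envelope of skin, ranged from 18.0 in horse 1 through 32.7 to 81.1 in horse 4 against 11.2 in horse 3 through 14.1 to 24.7 in horse 6. MYRIP, which links Rab27 on secretory granules to myosin, ranged from 18.6 in horse 6 through 75.9 to 186 in horse 4 against 5.498 in horse 6 through 9.08 to 61.5 in horse 4. Horse 4 stood far above the other licensed libraries of MYRIP, and above the lowest naive value.

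PLS1, an actin-bundling plastin, was lower in 4 horses, the fewest of the 52. Its naive values ran from 2.12 in horse 1 through 40.3 to 126 in horse 6 and its licensed values from 3.03 in horse 1 through 10.6 to 21.1 in horse 6. In horse 4 PLS1 was 8.89 in naive and 11.1 in licensed cells, and in horse 1 it was also higher after licensing. FAM107A, which binds actin, went from 59.5 ± 26.2 to 4.62 ± 3.36, and DCDC2, a doublecortin-domain protein that binds microtubules, from 68.0 ± 33.0 to 5.63 ± 4.69. These 2 genes had no overlap of the groups, in contrast to PALM3, of the paralemmin family, at 66.9 ± 31.5 and 16.1 ± 7.26.

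CFAP44, a protein of cilia and flagella, went from 43.6 ± 12.1 to 10.0 ± 5.24 without overlap. CCDC146, a coiled-coil protein, ranged from 21.8 in horse 5 through 41.6 to 61.1 in horse 4 in naive and from 5.54 in horse 5 through 16.5 to 28.2 in horse 4 in licensed cells. It was lower in every horse, with the same horse lowest and the same horse highest in both groups. Among the 3 genes named without a role, ANKRD33B ranged from 11.6 in horse 3 through 29.6 to 250 in horse 1 against 5.498 in horse 6 through 11.9 to 18.2 in horse 1, and its naive mean of 64.0 went to 26.8 without horse 1. CCDC152 went from 59.4 ± 32.4 to 17.0 ± 11.6. In humans CCDC152 overlaps a gene on the opposite strand, and since the use of strand is not given, such reads cannot be told apart. RUNDC3B went from 50.9 ± 13.2 to 11 ± 4.03 without overlap.

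Within horses the direction was nearly uniform, which the choice on group means fixes in part. Of 312 pairs of a gene and a horse, 305 were lower in the licensed culture. The 7 others were 1 pair each for CDH26, CALB2, HDAC9, WNT2B and VNN1 and 2 pairs for PLS1, and 4 of the 7 were in horse 1. The share of lower pairs over all genes listed as lower was not worked out, so the count of 305 is not read as a trait of the 52. In all 6 horses 46 of the 52 genes were lower, which is 88.5%, against 93.3% of all genes listed as lower. The naive and licensed ranges did not overlap for 23 genes, or 44.2%, against 53.5% of all genes listed as lower, so the 52 were not set apart by clean separation. Without horse 1 the count was 33, a setting for which the share over all genes listed as lower was not worked out. The median log2 ratio over the 52, with 1 added to each value, was -2.27, -1.82, -2.46, -2.24, -2.39 and -1.97 in horses 1 to 6. Summed over the 52 genes, the naive cultures held 2860 to 3886 and the licensed cultures 463 to 775 normalized counts, 5.02 to 7.22 times less in the same horse.

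Fitted over all listed genes with limma, 49 of the 52 passed an adjusted p of 0.05 and a 2-fold lower level, as did 46.8% of all listed genes. The table holds only genes that had been called and the 52 were chosen on the same contrast, so nothing is read from this count. CALB2, HDAC9 and PLS1 did not pass, with log2 changes of -1.64 ± 1.07, -1.73 ± 0.86 and -1.31 ± 0.78 (SE). This fit had no term for the horse, so these SEs leave the pairing of the cultures out. With the horse as a block the SEs of CALB2, HDAC9 and PLS1 were 0.45, 0.52 and 0.46. In that fit all 52 passed, as did 641 of the 1341 listed genes, and nothing is read from this count either.

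**Figure D3:**
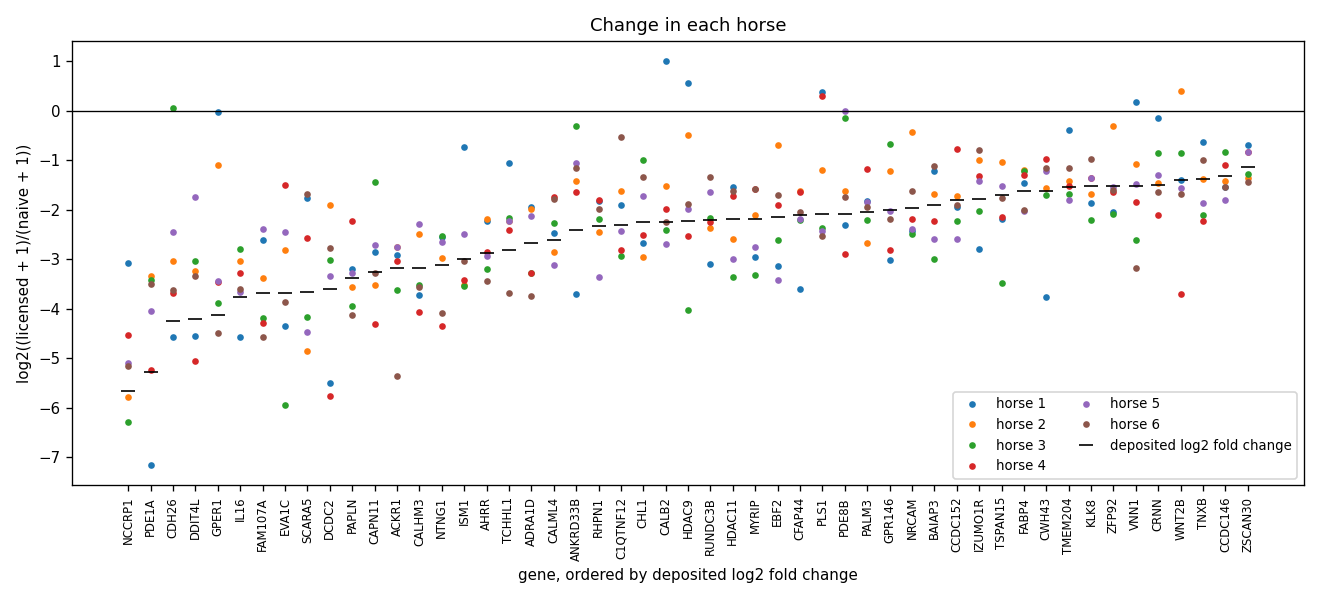
Log2 of licensed plus 1 over naive plus 1 normalized counts for 51 of the 52 genes in each of the 6 horses, with a dash at the deposited log2 fold change. Points lie below 0 for 299 of the 306 pairs shown, a direction the choice of the genes fixes in part. CDH26, GPER1 and PLS1 are among the genes whose horses spread most.

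The rule put no limit on how the naive cultures differed from each other, but the choice bears on that spread, as given below. The coefficient of variation (CV, the SD as a percentage of the mean) of the naive values had a median of 53.0% over the 52 genes, with a range from 18.5% for GPR146 to 180% for CDH26. It was 34.8% over the other 619 genes listed as lower, and 35.0% over the 133 of them with naive means between the lowest and highest of the 52. The 133 are not matched on level, since their median naive mean was 102.5 against 51.9, and lower counts carry more counting error. Nor are they matched on the ratio of naive to licensed mean, with a median of 2.52 against 4.72. Only called genes are listed, and a gene with a larger ratio can be called at a larger spread. The spreads compared here are therefore not independent of the choice. The highest naive value plus 1 was at least 10 times the lowest plus 1 for 16 of the 52 genes, or 30.8%, against 7.27% of the 619 and 7.52% of the 133. Leaving out horse 1 brought the 16 down to 8. These shares are descriptions. A threshold on a mean admits genes that 1 high horse carries, and 18 of the 52 had a naive mean under 40 when 1 horse was left out. For 8 of them that horse moved the mean by more than 1.5-fold: horse 1 for CDH26, ANKRD33B, PAPLN, EVA1C and PDE1A, horse 6 for GPER1 and PLS1, and horse 4 for PDE8B. Horse 6 moved the mean of TCHHL1 by as much, but it stayed above 40.

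No single horse was high for all the genes. The highest naive value lay in horses 1 to 6 for 9, 10, 6, 9, 10 and 8 genes. The lowest lay in horse 1 for 20 genes and in horse 3 for 13, and in horses 2, 4, 5 and 6 for 5, 3, 2 and 9. Among the other genes listed as lower, naive horse 1 was also most often the lowest, for 42.0%, and horse 3 next, for 18.6%. Horse 1 went both ways: it stood at least 2-fold above the next naive library for 5 of the 52 genes and at least 2-fold below it for 13, while no other horse reached more than 1 and 4. In the same library 2 genes of inflammation were high: naive horse 1 held 400 normalized counts of TNFAIP3, an NF-κB feedback gene, against 6.67 to 14.99 in the other naive libraries, and 609 of the cytokine gene IL6, against 26.8 to 38.9. Both were chosen after their values were seen. Their part in the low or high values of horse 1 was not tested.

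Naive and licensed cultures shared the order of the horses in part. The horse with the highest naive value also had the highest licensed value for 23 of the 52 genes, or 44.2%, and the lowest for both was the same horse for 25, or 48.1%. The other genes listed as lower had 47.3% and 51.2%, so the 52 were not particular in this. For each horse, the deviations of its naive and licensed libraries from the means of their groups had a Pearson correlation over the 52 genes of 0.44 to 0.72. The points share their libraries and the genes are not independent, so no p is given.

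**Figure D4:**
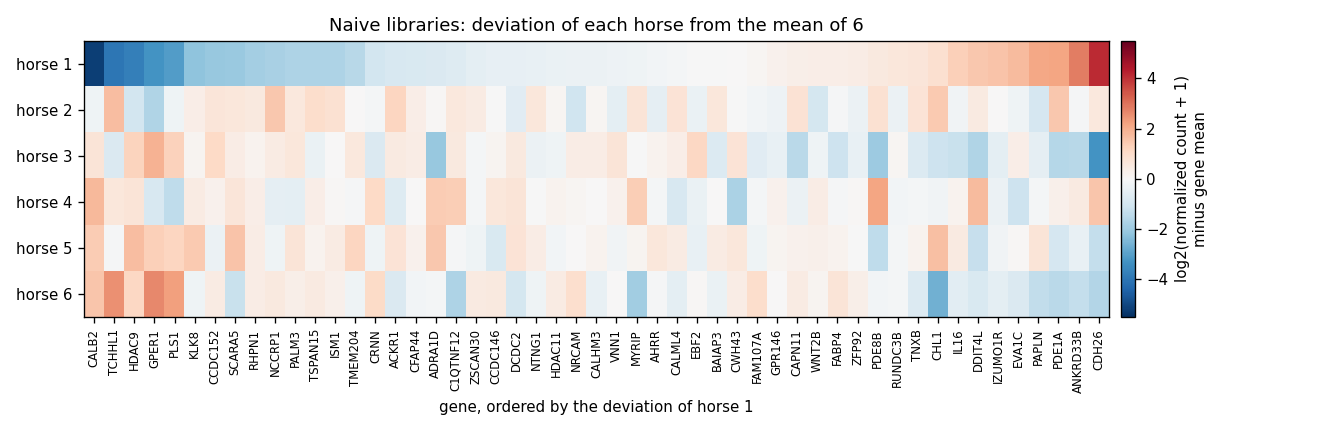
Deviation of each naive library from the mean of 6, in log2(normalized count + 1), for 51 of the 52 genes ordered by horse 1. Deviations run from -5.18 to 4.09, and horse 1 holds both the deepest blue and the deepest red cells.

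By the measure of likeness used, the listed genes most like the average of the 52 over the 6 naive libraries were CHCHD6 (r = 0.95), ATP11A (0.94) and GHDC (0.94). Their log2 fold changes in the authors' deposited table were -1.05, 1.01 and -1.06, so 1 of the 3 was higher in licensed cells. These 3 genes are the top of a ranking of many listed genes over only 6 libraries. How high the top r would be by chance was not worked out, so no shared behaviour is read from it. The naive and licensed thresholds cut through a continuum. Just inside the naive threshold were GPR146, at a mean of 40.8, and PDE8B, at 41.05, and just outside it SPEF1 and ATL1, both at 38.7. Just inside the licensed threshold were MYRIP, at 19.6, and ZSCAN30, at 19.3, and just outside it SRGAP3, at 20.02, and IQGAP2, at 20.1. Read the other way, with a naive mean of at most 20 and a licensed mean of at least 40, the same table held 60 genes with a symbol. No gene was left out by name from the 60, unlike from the 52.

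Lists of known families placed the 52 among their relatives. The counts are the authors' calls, set beside 5.09% lower and 5.08% higher over all tested genes. How many genes of each list were tested is unknown, so these shares have unlike bases. The lists were chosen with earlier results of these data known, so no count is read as a trait of its list. Of 18 phosphodiesterases, 3 fell and 3 rose, with a median of -0.32 over the 6 in the log2 fold changes of the authors' deposited table. As no listed gene changed by less than 1.001 on the log2 scale, that median stands for none of the 6. PDE1A and PDE8B were 2 of those that fell, the third, PDE5A, fell by 1.67 on the log2 scale in the authors' deposited table, and PDE4C, a cAMP phosphodiesterase, rose by 2.22 there. PDE5A was named after its values were seen. Of 6 F-box-associated proteins NCCRP1 was the only one listed. Of 16 inhibitors of mTORC1 and energy-stress genes DDIT4L fell and ARRDC4, an arrestin-domain protein, rose by 1.02 on the log2 scale in the authors' deposited table.

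Of 26 adipogenic and lipid-storage genes, 5 fell, FABP4 among them, and 2 rose, with a median log2 fold change of -1.63 over the 7 in the authors' deposited table. CEBPA, a transcription factor of fat cell differentiation, fell from 1517 ± 339 to 152 ± 77.1, while ADIPOQ, the fat cell hormone adiponectin, rose from 3.44 ± 2.13 to 85.7 ± 40.6 and CEBPD, an early factor of the same differentiation, from 159 ± 60.02 to 936 ± 284. The genes of this list thus moved in both directions. Of 30 genes of quiescent or adventitial fibroblasts, 9 fell and 1 rose, with a median of -1.78 over the 10 in the log2 fold changes of the authors' deposited table. SCARA5 and TNXB were among the 9, with SFRP4, a secreted Wnt antagonist, at -4.10 and ABCA9, a lipid transporter, at -3.12 in the authors' deposited table. DPT, the matrix protein dermatopontin, was the one that rose, by 2.52 there, and was named after its values were seen. APOD, named only because it is in both the adipogenic and the fibroblast list, is counted among those that fell in each.

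The cell type lists describe the cultures. Of 15 names of MSC surface markers, of which ENG and CD105 stand for the same gene, 3 fell and none rose. THY1 (CD90) was among those that fell, from 18790 ± 10280 to 2426 ± 1778. None of the 16 myeloid, 13 lymphoid and 10 erythroid markers was listed. Of 13 endothelial markers 2 rose, of 18 epithelial markers 2 rose and 1 fell, of 16 neural and glial markers 1 rose, and of 18 smooth muscle and pericyte markers 2 rose and 3 fell. MCAM is in both the last list and that of MSC surface markers, and is counted among those that fell in each. The levels of genes that were not listed were not analysed here, so the absence of other cells cannot be read from these counts, and their part in the levels of the 52 genes was not tested. The neural family members NTNG1, CHL1, NRCAM and CALB2 were lower in licensed means, while the neural marker TUBB3, a tubulin, rose by 2.24 on the log2 scale in the authors' deposited table. Of the other lists, 20 Notch genes had 3 that rose and 1 that fell, 41 homeobox and T-box genes 3 and 4, 15 hedgehog genes 2 and 1, 30 nuclear receptors 3 and 2, and 22 retinoid genes 1 and 0. None of 24 complement genes and 32 interferon-stimulated genes was listed.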

How the data were processed

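Bulk RNA-seq of 12 libraries was used, 1 naive and 1 licensed culture from each of 6 horses. Per the submitters' processing notes, Trimmomatic 0.36, STAR 2.5.2b, featureCounts of Subread 1.5.2 and DESeq2 were used. Not given in the sources used here are genome build, annotation and use of strand. The single table, made by the authors, lists only genes past a 2-fold change (smallest absolute log2 value 1.001) and an adjusted p-value of 0.05 (largest 0.0499). For each it holds the deposited p-value, raw and adjusted, the deposited log2 fold change and a signal per library that is a count divided by a size factor. No column belonged to other samples. Adjusted p-values and ranks fit 13183 tested genes (87.5% of ranks whole within 0.05 over 216 genes, 21.8% for the next best number).

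The values were whole multiples of 1 step per library in 100% of cases within 0.01 reads, so read counts could be recovered by division. For licensed horse 1 the step, 1.009721, is too near 1 to be told from rounding, so edgeR was also run without that horse. DESeq2 1.42.0 on these reads without a term for the horse differed from the deposited log2 fold change by over 0.01 for 0 of 1341 genes.

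The 52 genes, the roles and the 20 lists (388 distinct names, 58 in the table) were chosen with earlier results of these data known. Named in full, by lowest, median and highest value, are the 12 genes with the highest naive mean, NCCRP1, PDE1A, DDIT4L and genes whose naive mean drops under 40 without 1 horse, 29 in all, of which 28 are given and plotted. The remaining gene is counted among the 52 and not reported here. Of a list, up to 3 genes with the largest deposited change are named. Likeness is Pearson's r with the average of the 52 over naive libraries, among listed genes with a naive mean of at least 40. limma 3.58.1 (R 4.3.3, trend, robust) was fitted to log2(value + 1) over 1341 genes without a block, with Benjamini-Hochberg adjustment, and on that scale the change of low genes is understated. edgeR 4.0.16 and DESeq2 were alternatives. Scripts were tested on simulated data. Horses pair the libraries per the labels: the 2 libraries of a horse had deviations correlated at 0.48 to 0.63, and libraries of different horses at -0.40 to 0.14. Poisson intervals cover counting error only.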

Additional observations from a re-analysis of the deposited data

Results flagged for a closer look

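In each group of 6 libraries, a highest or lowest value was looked at again where its gap to the next library was large against the whole range of the group (Dixon's test at the 95% level). Of 102 groups, 51 genes in naive and licensed cells, 15 were picked out, where chance gives about 1 in 20 for normally distributed values of genes not chosen on them. That rate is no yardstick here, because the 51 genes were chosen on these values, and CDH26, ANKRD33B, PAPLN, EVA1C, IZUMO1R and PDE8B reached the naive threshold only with the horse named below. Naive cells gave 9, of which 6 were in horse 1, and licensed cells 6.

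In naive horse 1 the value was the highest by a wide gap for CDH26, at 649.9 with 110.0 next, for ANKRD33B, at 249.8 with 49.99 next, and for PAPLN, at 194.8 with 71.7 next. The same held for EVA1C, at 163 with 61.0 next, and for IZUMO1R, at 124.9 with 41.8 next. RHPN1 was the opposite case, at 16.94 in naive horse 1 with 73.6 next above it. Other naive libraries stood out for 1 gene each. EBF2 was 117.2 in horse 3 with 55.8 next, PDE8B was 121.1 in horse 4 with 47.1 next, and FAM107A was 110.5 in horse 6 with 60.3 next.

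Among licensed libraries, horse 1 was far above the rest for CDH26, at 26.25 with 7.68 next, and for VNN1, at 38.37 with 12.8 next. CDH26 was the only gene picked out in both groups, in the same horse. Horse 5 was far above for CHL1, at 41.59 with 14.7 next. In horse 4 MYRIP was 61.47 with 26.4 next. PDE1A, at 7.825 in horse 2 with 0 in all others, rests on 8 reads, and CAPN11, at 0.8537 in horse 4 with 5.11 next above, on 1 read, so both lie at the counting limit.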

How the results depend on the processing

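How many genes met the rule depended on its settings. There were 4 with thresholds of 80 and 10, 182 with thresholds of 20 and 40, and 96 after rescaling every library to an equal sum over listed genes. Rescaling moved the median log2 ratio of all listed genes from -0.95 to -1.51. That median lies at the edge of the gap between genes listed as lower and as higher, so only its shift is read. Leaving out 1 horse gave 50 to 59 genes, and 30 of the 52 remained whichever horse was left out. The median log2 ratio of the 52, -2.15, was -1.90 with a pseudocount of 5 and -2.73 after rescaling, and -2.23 to -2.12 without 1 horse. Of the 52, 27 were at least 2-fold lower in every horse. Without 1 horse, 46 to 49 genes were lower in all others, 24 to 33 had no overlap and 8 to 16 had a naive range of at least 10-fold, 8 being the count without horse 1. For the 2-fold count and those without 1 horse, the share over all genes listed as lower was not worked out. Those counts are therefore not read as a trait of the 52. The limma count of 49 was 52 with the horse as a block (replicate block), 10 of 10 tested when a mean of 50 was asked for, and 43 to 50 without 1 horse. Of all genes tested, 641 of 1341, 445 of 956 and 578 to 627 of 1341 passed as lower in these settings. edgeR and DESeq2 on recovered reads called 52 of 52. Each also called 671 of the 1341 listed genes lower, as many as the authors did, so nothing is read from these counts. Over the alternatives, 630 log2 fold changes of single genes stayed within 1 SD over horses and 4 moved. Those 4 were of PDE1A and PAPLN under other pseudocounts, and no sign changed. Most of the 630 could not have moved. In limma the block and the mean of 50 leave each log2 fold change as it was. Leaving out 1 horse there always shifts it by less than 1 SD. The total is therefore not read as robustness. Where a move was possible, 50 genes stayed with each other pseudocount, and all 52 with edgeR and with DESeq2. That yardstick is wide for genes whose horses differ, with an SD of 1.61 for CDH26 and 1.76 for GPER1. CDH26 went from -2.89 in limma to -4.24 in DESeq2 and GPER1 from -2.74 to -4.12, and both count as having stayed. Staying is therefore not read as equal values between methods. Low reads limit the genes with licensed means under 5, and depth beyond the listed genes is unknown.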
